A study of Oryza sativa with 6 samples.

Results

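The SEPALLATA (E class) and AGL6 class MADS-box genes of rice (*Oryza sativa*) were followed in panicles of plants that overexpress OsEXPA7, an alpha-expansin, and of the wild type. The class was taken as 7 loci given by identifier, out of 42189 loci in the deposited table. These were *OsMADS1* (LOC_Os03g11614, chromosome 3), *OsMADS5* (LOC_Os06g06750, chromosome 6), *OsMADS34* (LOC_Os03g54170, chromosome 3), *OsMADS7* (LOC_Os08g41950, chromosome 8), *OsMADS8* (LOC_Os09g32948, chromosome 9), *OsMADS6* (LOC_Os02g45770, chromosome 2) and *OsMADS17* (LOC_Os04g49150, chromosome 4). The overexpression group (genotype label EXPA7_OE) and the wild type (WT, genotype label EXPA7) held 3 panicle libraries each, both in the Nipponbare background and both with the treatment label "natural". The labels call the libraries biological replicates without saying whether they came from separate plants or transgenic lines, so a p-value here speaks only of library-to-library spread, which may be technical. The labels name neither the promoter that drives OsEXPA7, nor the number of lines, nor the stage of the panicles. Expression is in TPM, a relative transcript abundance that is corrected for transcript length, so that levels of different genes can be set side by side. Sequencing depth is unknown.

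SEPALLATA proteins are MADS-domain transcription factors that bind DNA in complexes with the other classes of floral MADS proteins, and thereby help give meristems and organs of the flower their identity. In grasses the SEPALLATA genes fall into the LOFSEP group, with *OsMADS1*, *OsMADS5* and *OsMADS34*, and a SEP3-like group, with *OsMADS7* and *OsMADS8*. *OsMADS6* and *OsMADS17* belong to the closely related AGL6 group and share functions with the SEPALLATA genes in the rice spikelet, the unit of the panicle that carries the floret.

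The table pairs no locus with a name. The pairing of the names with the loci is general knowledge of rice genes. All 7 names are listed in the reference gene table on the chromosome that the identifier names. Over all 64 genes used here, 45 were listed in this way, and all 88 pairs of them on a shared chromosome stood in the same order in both sources. Libraries of the same genotype were much alike, with a Pearson r across loci of 0.991 to 0.993 for log2(TPM + 1), against 0.948 to 0.953 between genotypes. *OsEXPA7* itself measured 5077, 4323 and 4946 TPM in the overexpression libraries, against 964, 959 and 882 TPM in WT, as the labels say. Of 23395 loci tested across all genes, 42.8% passed an adjusted p of 0.05 (limma, Benjamini-Hochberg), 5911 of them higher and 4091 lower with overexpression. This split turned to 4598 higher and 5467 lower after quantile normalization.

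The class was well expressed in both genotypes and moved little. The SEP3-like genes *OsMADS7* and *OsMADS8* and the LOFSEP gene *OsMADS34* rose in the overexpression panicles by 1.26-fold, 1.12-fold and 1.17-fold as ratios of mean TPM. *OsMADS1*, *OsMADS5*, *OsMADS6* and *OsMADS17* did not pass the test, and their mean TPM ratios lay between 0.988 and 1.06. All 7 genes exceeded 1 TPM in every library, so the filter on low values removed none of them, and single values ran from 27.0 to 291 TPM. The count of 3 of 7 that passed stands beside the 42.8% of all tested loci, and the 3 of 7 that rose beside the 25.3% of all tested loci that rose. None fell by limma, and none of those with a negative change reached an unadjusted p of 0.05 (0 genes). The median log2 change of the class was 0.09, against 0.06 over all tested loci. The median absolute log2 change was 0.09 in the class and 0.23 over all tested loci, and 6 of the 7 genes lay under that 0.23. No gene of the class changed 2-fold, against 4.82% of all tested loci that passed and did so. The genotypes did not overlap for 3 of the 7 genes, against 53.7% of all tested loci. Of the 3 rises only that of *OsMADS7* passed under median-of-ratios scaling, and the same count of 1 was left without WT replicate 1. In bulk panicles fewer cells of a type and less RNA per cell cannot be told apart.

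**Figure D1:**
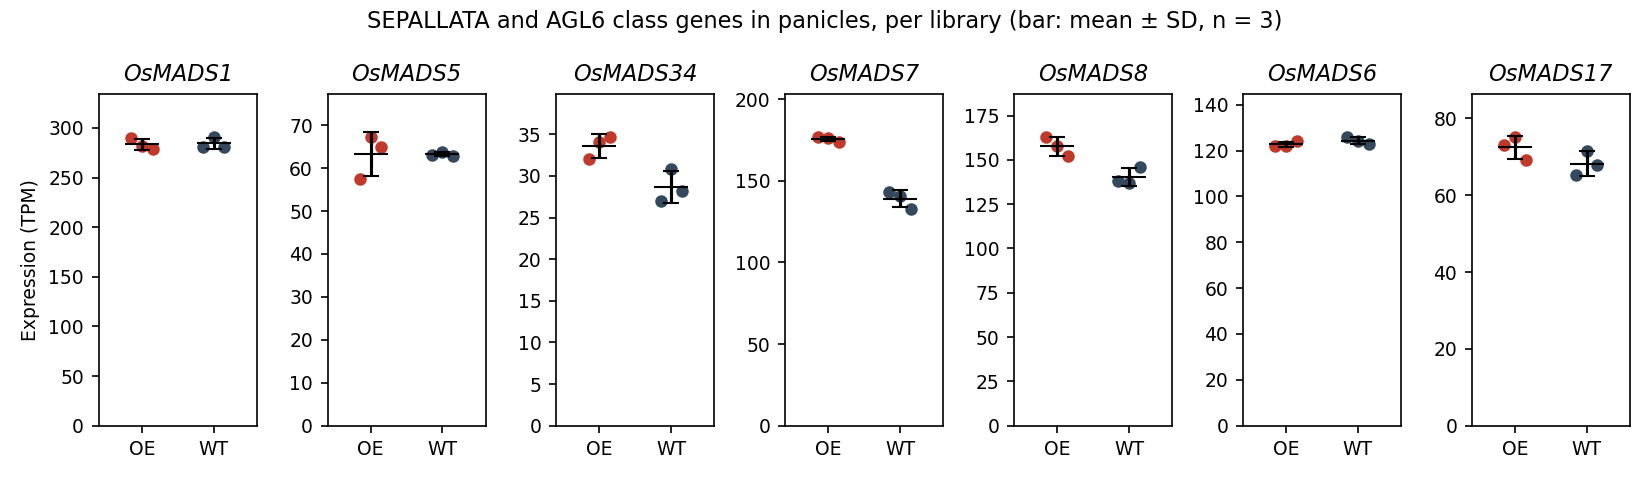
TPM of the 7 genes in each library, with overexpression (OE) left of WT; points are libraries, the bar is the mean and the whiskers are ± SD (n = 3), and each panel has its own axis from 0. The points of the genotypes do not overlap for *OsMADS7*, *OsMADS8* and *OsMADS34*, and overlap for the other 4 genes.

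Among the LOFSEP genes, *OsMADS1* (LEAFY HULL STERILE1), which in rice specifies lemma and palea and limits the floral meristem, was the most abundant of the class. It measured 289.7, 282 and 279 TPM in the overexpression libraries, against 281, 291 and 281 TPM in WT. The genotypes overlapped fully, with means of 284 ± 5.62 TPM with overexpression and 284 ± 5.95 TPM in WT (SD, n = 3 each). The log2 change was -0.0035 ± 0.0408 (SE; adjusted p = 0.954, limma), and its 95% interval ran from 0.936-fold to 1.06-fold. With the values as deposited, only 0.812% of the tested loci had a smaller absolute change. Under median-of-ratios scaling the log2 change was -0.06 (adjusted p = 0.417, limma).

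*OsMADS5*, a close relative of *OsMADS1* with a milder role in the rice spikelet, measured 57.5, 67.3 and 65.0 TPM in the overexpression libraries, against 63.1, 63.8 and 62.9 TPM in WT. Its overexpression libraries lay on both sides of the WT values, with the first below and the others above all of them. The means were 63.3 ± 5.11 TPM with overexpression and 63.3 ± 0.485 TPM in WT (SD, n = 3 each). The 95% interval of the change, from 0.899-fold to 1.11-fold, was accordingly wider than for *OsMADS1* (adjusted p = 0.968, limma).

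*OsMADS34* (PANICLE PHYTOMER2), which in rice acts in panicle branching and in the identity of the sterile lemmas, was the least abundant of the class. It measured 32.0, 34.1 and 34.7 TPM in the overexpression libraries, against 27.0, 30.8 and 28.2 TPM in WT. Each overexpression library lay above each WT library, though the gap between 32.0 and 30.8 TPM was smaller than the SD of either genotype. The means were 33.6 ± 1.42 TPM with overexpression and 28.7 ± 1.98 TPM in WT (SD, n = 3 each). The log2 change was 0.22 ± 0.07 (SE; adjusted p = 0.0318, limma), with a 95% interval from 1.04-fold to 1.30-fold. The call was lost under median-of-ratios scaling (log2 change 0.17, adjusted p = 0.0752, limma) and after quantile normalization (0.11, adjusted p = 0.212). It was also lost without overexpression replicate 2 (adjusted p = 0.0727), overexpression replicate 3 (0.109), WT replicate 1 (0.114) or WT replicate 3 (0.0655).

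The largest change in the class, by fold and by adjusted p, was that of *OsMADS7* (also named OsMADS45), a SEP3-like gene that acts with *OsMADS8* in floral organ identity and flowering time in rice. It measured 177, 176 and 174 TPM in the overexpression libraries, against 143, 141 and 133 TPM in WT. The overexpression libraries were nearly equal to each other, and all lay well above the highest WT library. The means were 176 ± 1.16 TPM with overexpression and 139 ± 5.09 TPM in WT (SD, n = 3 each). The log2 change was 0.33 ± 0.05 (SE; adjusted p = 4.41e-04, limma), with a 95% interval from 1.17-fold to 1.35-fold. The call held in each of the 15 alternatives, where the log2 change lay between 0.28 and 0.35. In size the change was ordinary for these data, since 66.2% of the tested loci had a smaller absolute change.

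*OsMADS8* (also named OsMADS24), the other SEP3-like gene, measured 163, 158 and 152 TPM in the overexpression libraries, against 138, 137 and 146 TPM in WT. The genotypes did not overlap, but the lowest overexpression library stood close to the highest WT library. The means were 158 ± 5.69 TPM with overexpression and 140.4 ± 4.88 TPM in WT (SD, n = 3 each). The log2 change was 0.17 ± 0.05 (SE; adjusted p = 0.0245, limma), with a 95% interval from 1.04-fold to 1.21-fold. The call was lost under median-of-ratios scaling (log2 change 0.11, adjusted p = 0.134, limma) and without the variance trend (adjusted p = 0.0784). A replicate block in the model removed the call as well (adjusted p = 0.0617, limma). It was also lost without overexpression replicate 1 (adjusted p = 0.0781), WT replicate 1 (0.0813) or WT replicate 2 (0.0916).

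Of the AGL6 genes, *OsMADS6* (MOSAIC FLORAL ORGANS1), which in rice acts in palea and floral organ identity and in ending the floral meristem, measured 122, 122 and 124 TPM in the overexpression libraries, against 126, 124 and 123 TPM in WT. The genotypes overlapped, with means of 123 ± 1.14 TPM with overexpression and 124 ± 1.64 TPM in WT (SD, n = 3 each). The log2 change was -0.02 ± 0.04 (SE; adjusted p = 0.769, limma), with a 95% interval from 0.923-fold to 1.06-fold. *OsMADS17*, whose loss in rice is felt mainly when *OsMADS6* or *OsMADS1* is impaired as well, measured 73.1, 75.2 and 69.2 TPM in the overexpression libraries, against 65.3, 71.6 and 67.8 TPM in WT. The genotypes overlapped through the lowest overexpression and the highest WT library. Its log2 change was 0.09 ± 0.06 (SE; adjusted p = 0.261, limma), and its 95% interval, from 0.969-fold to 1.16-fold, leaves room for a rise of the size seen in *OsMADS8*.

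The order of the levels was nearly the same in both genotypes. In the overexpression panicles it ran from *OsMADS1* through *OsMADS7*, *OsMADS8*, *OsMADS6*, *OsMADS17* and *OsMADS5* to *OsMADS34*, and no neighbours in this order overlapped between libraries. In WT panicles *OsMADS8* and *OsMADS7* overlapped and could not be ordered, and the other neighbours did not overlap. *OsMADS17* and *OsMADS5* stood close, with a lowest *OsMADS17* value of 69.2 TPM and a highest *OsMADS5* value of 67.3 TPM in the overexpression libraries, and 65.3 and 63.8 TPM in WT.

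The 7 genes together summed to 914, 914 and 898 TPM in the overexpression libraries, against 843, 859 and 842 TPM in WT. The ratio of the mean sums was 1.07. The 5 SEPALLATA genes summed to 719, 717 and 704 TPM with overexpression and 652, 664 and 651 TPM in WT. Among them the higher sum came from *OsMADS7*, *OsMADS8* and *OsMADS34*. The means of *OsMADS1* (284 TPM) and *OsMADS5* (63.3 TPM) were the same in both genotypes. The AGL6 pair summed to 195, 197 and 193 TPM with overexpression and 191, 195 and 191 TPM in WT, and here the genotypes overlapped. With median-of-ratios scaling the ratio of the 7-gene sums was 1.03 and the genotypes overlapped, so the higher sum depended on the scaling.

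Shares within the sum do not change when a library is multiplied by a single factor, as in median-of-ratios scaling; they were not computed after quantile normalization, which moves genes unequally. *OsMADS7* made up 19.3% ± 0.102 of the sum with overexpression and 16.4% ± 0.559 in WT, and each overexpression library lay above each WT library. *OsMADS1* made up 31.2% ± 0.431 with overexpression and 33.5% ± 0.323 in WT, and *OsMADS6* 13.5% ± 0.267 with overexpression and 14.6% ± 0.286 in WT (SD, n = 3 each). *OsMADS5* made up 6.29%, 7.36% and 7.24% with overexpression, against 7.49%, 7.43% and 7.47% in WT. For these 3 genes the share in each overexpression library lay below that in each WT library, narrowly for *OsMADS5* (7.36% against 7.43%). Shares add up to a fixed whole, so a larger share of *OsMADS7* by itself lowers those of the other genes. In TPM these 3 genes overlapped between the genotypes and did not pass. The shares of *OsMADS34*, *OsMADS8* and *OsMADS17* overlapped. The SEP3-like pair together held 36.7% ± 0.430 with overexpression and 33.0% ± 0.513 in WT. The plot of shares shows that all these differences are of a few percentage points.

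**Figure D2:**
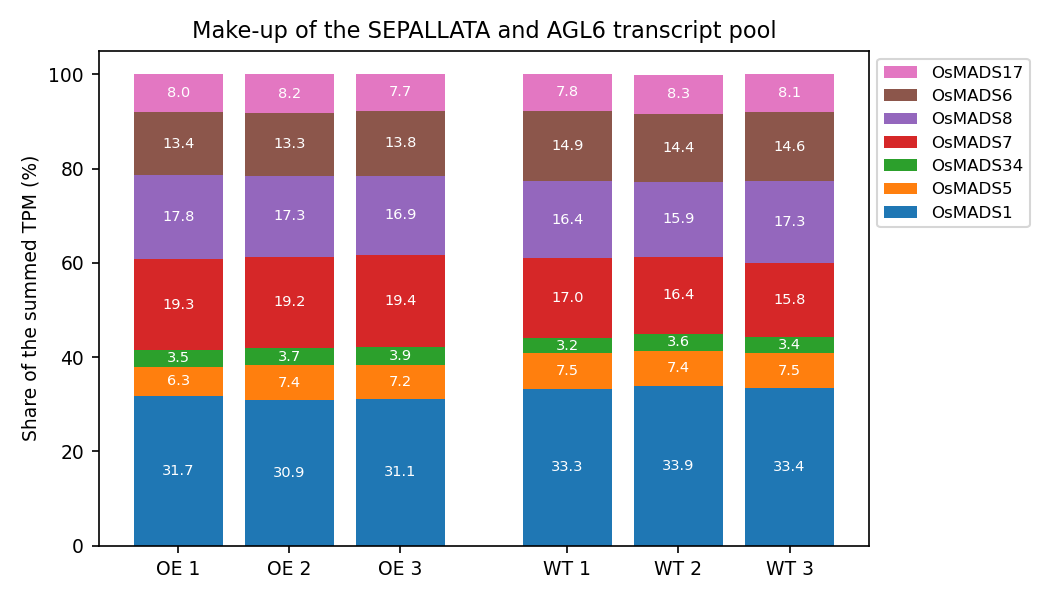
Share (%) of each of the 7 genes in their summed TPM, one stacked bar for each overexpression (OE) library and then each WT library. The *OsMADS7* segment is 19.2% to 19.4% in the overexpression libraries and 15.8% to 17.0% in WT, and the *OsMADS1* segment 30.9% to 31.7% in the overexpression libraries and 33.3% to 33.9% in WT.

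Ratios between related genes within a library were compared for 4 pairs by an exact two-sided permutation test, whose smallest possible p with 3 libraries against 3 is 0.1. The log2 ratio of *OsMADS7* to *OsMADS8* was 0.12, 0.15 and 0.20 with overexpression, against 0.05, 0.04 and -0.13 in WT. The genotypes did not overlap, and the difference of 0.17 reached the smallest possible value (exact permutation p = 0.1, adjusted p = 0.2 over the 4 pairs). The log2 ratio of *OsMADS1* to *OsMADS34* was 3.14, 3.01 and 2.97 with overexpression, against 3.33, 3.2 and 3.27 in WT, a difference of -0.23 that did not overlap either (exact permutation p = 0.1, adjusted p = 0.2). For *OsMADS6* over *OsMADS17* the genotypes overlapped (difference -0.10, exact permutation p = 0.2, adjusted p = 0.267), as they did for *OsMADS1* over *OsMADS5* (difference 0.00037, exact permutation p = 1, adjusted p = 1). None of the 4 comparisons could pass a threshold of 0.05 at this size.

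Genes of the other floral classes were examined next. The other floral MADS genes and *DL*, a list of 21 genes, had 19 that could be tested, of which 6 rose, 2 fell and 11 did not pass (limma, adjusted p under 0.05). Over all tested loci 42.8% passed, so the share of this list that passed was close to the background. Their median log2 change was -0.05, against 0.09 in the class and 0.06 over all tested loci. *OsMADS20* and *OsMADS29* were too low to test.

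The largest change in this list was in the B class, which with E class proteins specifies lodicules and stamens. *OsMADS16* (SUPERWOMAN1), the rice APETALA3-type gene, measured 150.4, 141 and 144 TPM with overexpression, against 72.7, 78.2 and 77.0 TPM in WT. The values of the genotypes were far apart (log2 change 0.93 ± 0.05 SE, adjusted p = 1.65e-06, limma). *OsMADS2* and *OsMADS4*, the PISTILLATA-type genes whose products pair with OsMADS16, did not pass. Their means were 59.3 and 39.4 TPM with overexpression and 69.0 and 37.0 TPM in WT. Without overexpression replicate 3 the count of falls in the B class was 1. Set against the class, *OsMADS16* measured 20.9, 19.6 and 20.5 TPM for every 100 TPM of the SEPALLATA genes with overexpression, and 11.2, 11.8 and 11.8 in WT. The ratio of *OsMADS1* to *OsMADS16* was 1.95 ± 0.0425 with overexpression and 3.74 ± 0.104 in WT (SD, n = 3 each). Both ratios were chosen after the values were seen and were not tested.

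In the AP1/FUL class, which acts in meristem identity, *OsMADS14* and *OsMADS18* rose and *OsMADS15* did not pass. With library weights the count of rises in the AP1/FUL class was 3. *OsMADS14* averaged 47.0 TPM with overexpression and 36.6 TPM in WT (log2 change 0.35 ± 0.06 SE, adjusted p = 0.00133, limma). *OsMADS18* averaged 94.0 TPM with overexpression and 82.9 TPM in WT, a call that was lost under both other scalings (adjusted p = 0.106 and 0.0927, limma) and without overexpression replicate 1 or 2 or WT replicate 1 or 2 (0.0543 to 0.0683), and also without the variance trend (0.0643). In the C and D classes, which act in stamens, carpels and ovules, *OsMADS58* averaged 13.8 TPM with overexpression and 8.77 TPM in WT and rose (log2 change 0.59 ± 0.13 SE, adjusted p = 0.00575, limma). *OsMADS13* also rose, *OsMADS21* fell at under 2 TPM, and *OsMADS3* did not pass. The call of *OsMADS13* was lost without replicate 2 of either genotype (adjusted p = 0.0519 and 0.0582, limma), and that of *OsMADS21* without replicate 3 of either (0.0579 and 0.0560). Among the SVP and SOC1 classes *OsMADS22* rose and the other 4 did not pass. *OsMADS22* averaged 7.95 TPM with overexpression and 5.98 TPM in WT. Its call was lost without overexpression replicate 3 (adjusted p = 0.0502, limma) or WT replicate 2 (0.0619). The count of falls in these classes, 0 here, was 1 under median-of-ratios scaling, after quantile normalization and without the variance trend. It was also 1 with library weights and without overexpression replicate 2. In the B-sister class, which acts in ovules and seeds, both tested genes did not pass. With no filter on low values, and with library weights, the count of falls in the B-sister class was 1. *DL*, a YABBY gene that specifies carpels and the leaf midrib in rice, fell to 38.9 TPM with overexpression, against 47.6 TPM in WT (log2 change -0.28 ± 0.07 SE, adjusted p = 0.0117, limma).

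**Figure D3:**
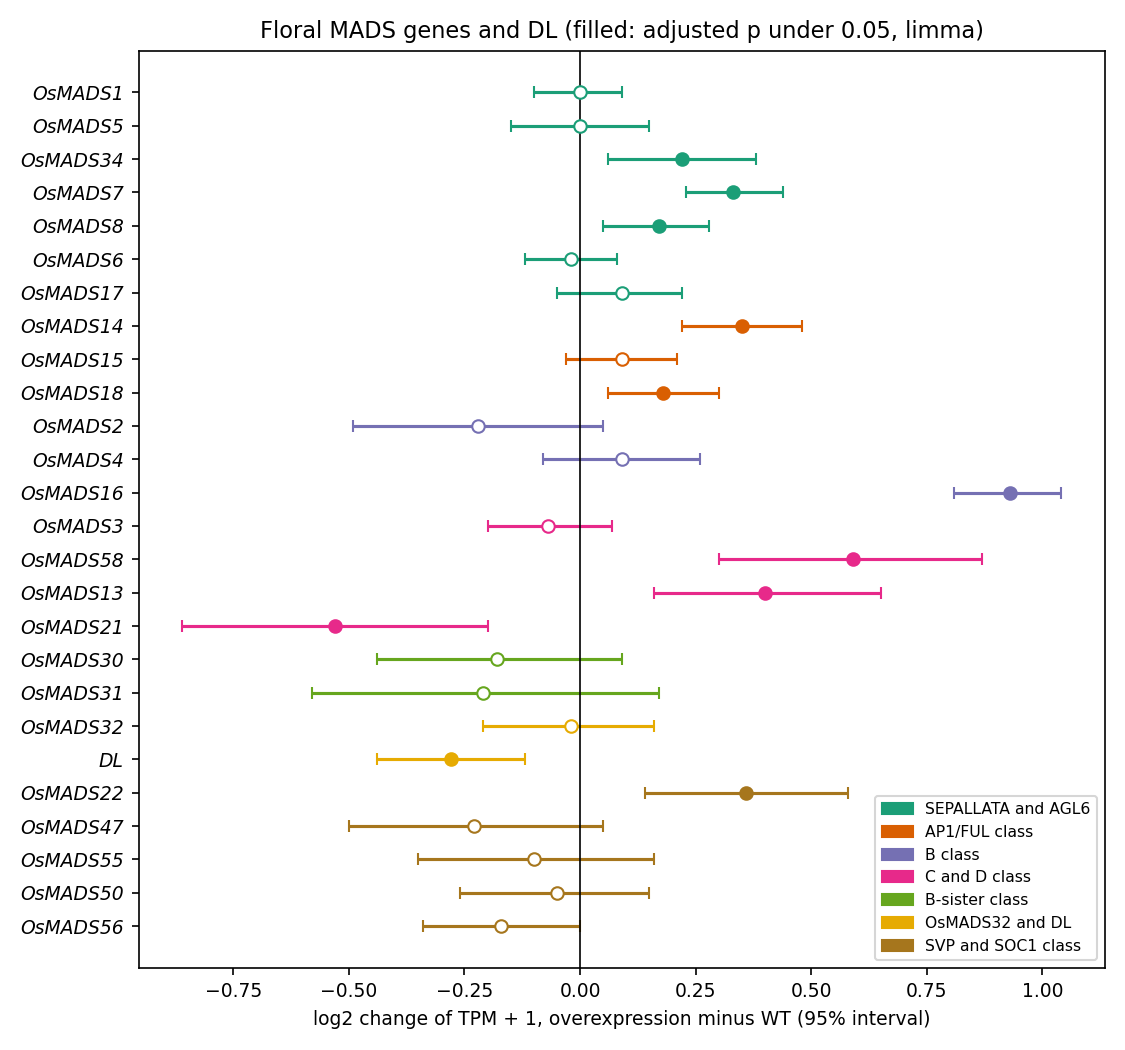
log2 change of TPM + 1 (overexpression minus WT) with its 95% interval for the SEPALLATA and AGL6 genes and the tested genes of the other floral classes; filled points passed an adjusted p of 0.05 over all loci tested (limma). The SEPALLATA and AGL6 genes lie between -0.02 and 0.33, and *OsMADS16* stands apart at 0.93.

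Likeness of pattern was measured as the mean absolute difference over the 6 libraries of log2(TPM + 1), after each gene had been centred on its own mean, among 18 other tested MADS genes. The libraries are those of the comparison itself, so likeness largely restates the change between genotypes. *OsMADS1*, *OsMADS5* and *OsMADS6* lay nearest to the C class gene *OsMADS3*, at distances of 0.0318, 0.0815 and 0.0423. For *OsMADS5* the AP1/FUL gene *OsMADS15* was practically as near, at 0.0817. *OsMADS34*, *OsMADS8* and *OsMADS17* lay nearest to *OsMADS18*, at 0.0649, 0.0450 and 0.050. *OsMADS7* lay nearest to *OsMADS14*, at 0.0435. Within the class *OsMADS1* and *OsMADS6* were each other's nearest, at 0.0290, while *OsMADS16* was the farthest MADS gene from 5 of the 7.

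The loci next to the 7 genes were read as well. Of the 14 tested loci that flank them, 5 rose, 4 fell and 5 did not pass (limma, adjusted p under 0.05), beside the 25.3% of all tested loci that rose and the 17.5% that fell. *OsMADS34* and *OsMADS14* adjoin on chromosome 3 with no gene between them in the reference, and both rose; the ratio of *OsMADS34* to *OsMADS14* overlapped between the genotypes, at 0.716 ± 0.050 with overexpression and 0.782 ± 0.0329 in WT (SD, n = 3 each). *OsMADS1* and *DL* likewise adjoin, and *DL* fell while *OsMADS1* did not pass. Beside *OsMADS6*, LOC_Os02g45780 measured 59.7, 57.0 and 61.0 TPM with overexpression, against 14.1, 15.8 and 15.1 TPM in WT, the largest change among the 14 (log2 change 1.91 ± 0.07 SE). Beside *OsMADS17*, LOC_Os04g49160 measured 5.79, 4.60 and 6.57 TPM with overexpression, against 12.4, 12.0 and 10.8 TPM in WT (log2 change -0.95 ± 0.12 SE). The table gives no name for either locus.

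Markers of panicle stage and of other tissues were read beside the class. The genes that act in branch and spikelet meristems were mostly near 0: 6 of the 9 listed were too low to test, and *FZP*, *LAX1* and *APO2* stayed under 1 TPM in every library. The other 3 all passed, beside the 42.8% of all tested loci that passed, 25.3% higher and 17.5% lower. Of these genes 1 was higher (log2 change 1.75) and 2 were lower (-0.74 and -0.46). Each of these changes was larger in size than any in the class. Anther and tapetum genes were abundant, with summed levels over 10 genes of 2015 to 2114 TPM with overexpression and 3467 to 3532 TPM in WT. Of these 10 genes 1 rose, 4 fell and 5 did not pass. Over all tested loci 42.8% passed and 17.5% fell. Without overexpression replicate 3 the count of rises was 2. The count of falls was 3 after quantile normalization or without the variance trend, and 5 without overexpression replicate 1. The drop in the sum was mostly *OsC6*, a lipid transfer protein gene of the rice tapetum, which fell to 263, 255 and 263 TPM with overexpression, against 1469.7, 1524 and 1568 TPM in WT. *EAT1* fell and *TDR* rose, both of them basic helix-loop-helix regulators of the rice tapetum, with log2 changes of -0.58 and 0.41.

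Of the meiosis genes 3 of 7 rose and 4 did not pass, beside the 25.3% of all tested loci that rose; the count of rises was 1 with the filter at 5 TPM, which leaves fewer of them to test, and 5 with library weights. Their sums were 100.3 to 108 TPM with overexpression and 77.2 to 83.4 TPM in WT. *PAIR2*, a protein of the meiotic chromosome axis, averaged 59.6 TPM with overexpression and 43.9 TPM in WT. Leaf photosynthesis genes fell in 4 of 5 cases, beside the 17.5% of all tested loci that fell, with sums of 554 to 609 TPM with overexpression and 899 to 974 TPM in WT. Most of the drop in this sum was *CAB2R*, which averaged 425 TPM with overexpression and 737 TPM in WT. Of the TFL1-like genes, which delay meristem identity, 1 of 2 tested rose, a call that was lost without WT replicate 1 or WT replicate 2 (0 of 2 in each case); with the filter at 5 TPM that gene was not tested. The summed anther, meiosis and leaf levels thus did not overlap between the genotypes, and their part in the rises of *OsMADS7*, *OsMADS8* and *OsMADS34* was not tested.

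**Figure D4:**
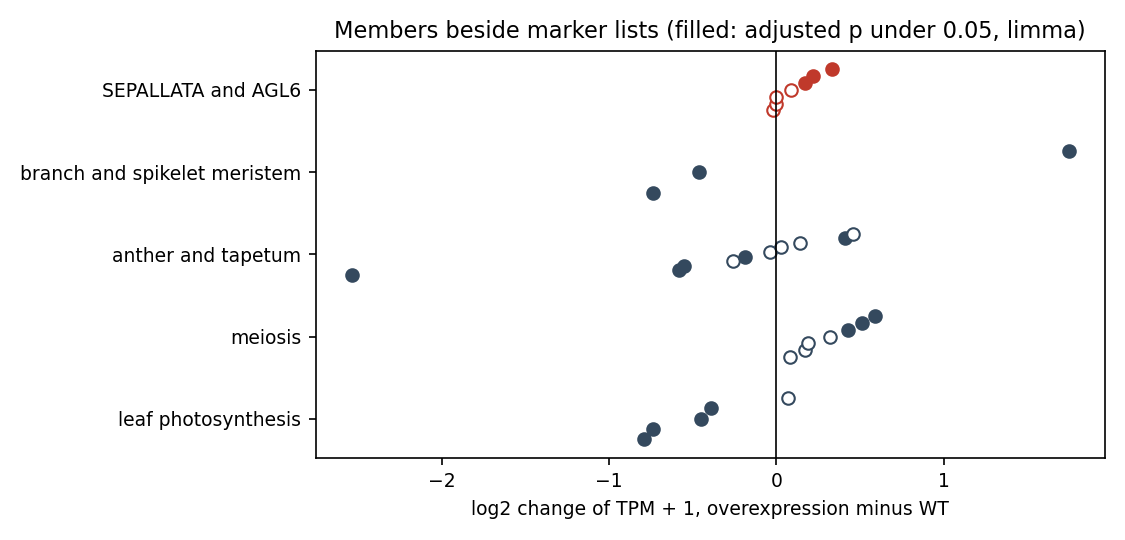
log2 change of TPM + 1 (overexpression minus WT) of each tested gene, for the SEPALLATA and AGL6 class (red) above 4 marker lists (dark); filled points passed an adjusted p of 0.05 over all loci tested (limma). The class spans -0.02 to 0.33, while the anther and tapetum list reaches -2.54 at *OsC6*.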

How the data were processed

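Panicle RNA from 3 overexpression and 3 WT libraries was analysed from the deposited table of TPM; in the authors' table every library sums to the same total. No source names the aligner, the quantification tool or the annotation. According to the submitters' processing notes the builds were GRCm38 and mm10, of mouse, while the identifiers are of the rice LOC_Os form, and this was not resolved. How reads shared between related genes were assigned is not stated, so values of close relatives are uncertain.

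A locus was tested if 3 or more of the 6 libraries had at least 1 TPM, which left 23395 loci, on the log2(TPM + 1) scale. The comparison of genotypes used limma 3.58.1 under R 4.3.3 (moderated linear model, trended prior variance, two-sided), with Benjamini-Hochberg adjustment over all loci tested and a threshold of 0.05. Log2 changes, SE and intervals are on that scale. TPM keeps no depth, so counting intervals were not given. The fit was also run on simulated data with independent noise and known changes in few loci, which does not bear on the choice of scaling. The rule for named genes was all 7 genes, *OsEXPA7*, up to 3 per list and direction that passed, the nearest profile and the flanking loci; other genes are named to complete a class. Outside the class, a gene is named in the text only where the reference (ASM3414082v1) holds the name on that chromosome. The genes and lists were chosen with earlier results of these data known. Alternatives covered the pseudocount (0.1), the filter (none, or 5 TPM), the scaling (median of ratios, quantile), the variance model (untrended, robust, library weights), a replicate block, and leaving out each library.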

Additional observations from a re-analysis of the deposited data

How the results depend on the processing

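The count of rising SEPALLATA and AGL6 genes was 3 and ranged from 1 to 3 over 15 alternatives. It was 1 under median-of-ratios scaling, and 1 to 2 when each library was left out in turn, the 1 being without WT replicate 1; the number that fell was 0 throughout. Over all loci the rising count ranged from 4598 to 7506 and the falling count from 3368 to 5467. Replicate numbers are shared between the genotypes, but deviations of same-numbered libraries correlated at 0.097, -0.0988 and -0.0685, so pairing was not assumed. With the replicate block 2 of the 7 genes rose (*OsMADS8* did not pass, limma adjusted p = 0.0617), and 5513 loci rose and 3751 fell. The near-zero log2 changes changed sign in some settings. *OsMADS1* was 0.0046 after quantile normalization and -0.02 to 0.01 without single libraries. *OsMADS5* was 0.01 with library weights and -0.05 to 0.06 without single libraries. With the sign kept, both were -0.06 under median-of-ratios scaling, and *OsMADS5* was -0.08 after quantile normalization. The log2 ratio difference of *OsMADS1* to *OsMADS5* ranged from -0.08 to 0.05 without single libraries; the other 3 ratios kept their direction in all 8 alternatives run for each. The ratio of sums was 1.03 for the 7 genes and 1.05 for the 5 SEPALLATA genes with median-of-ratios scaling, against 1.07 and 1.09 as deposited. The cause of these differences was not tested. The alternatives for the sums and for listed genes outside the class were chosen after seeing the data. With depth unknown, limits of detection for the lowest genes could not be set.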
